A study of Homo sapiens with 6 samples.

Results

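The genes described here are 44 genes of glucose metabolism, taken as every row of the count table whose symbol stood on a list of glucose transporters, glycolytic enzymes, lactate, pyruvate, pentose phosphate and glycogen enzymes and a few of their regulators. They are 44 of the 36517 genes in the table. After a filter on low counts 41 of the 44 were tested, among 19628 tested genes in all. Messenger RNA was sequenced from MDA-MB-453, an established human breast cancer cell line of epithelial type, at day 3. Control cells carried a lentivirus with a negative-control hairpin (control, n = 3 libraries), and shtRF cells one whose hairpin is directed at tRF-1-Ser, a small RNA released from the 3′ trailer of a precursor of serine transfer RNA (shtRF, n = 3 libraries). All 6 libraries thus came from stably transduced cells of 1 line kept in the same serum-containing medium, and cells without a lentivirus were not analysed here. The replicates are described as biological, but whether each came from its own transduction is not given in the sources used here, so p-values measure the spread between these libraries, which may be technical. The target of the hairpin is too small to be seen in these libraries, so group names were taken as labelled.

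Libraries held 63541413 to 78917459 counts, a 1.24-fold range. The breast epithelial markers were all detected, with a summed level of 1180 to 1440 RPKM per library (counts divided by exonic length and library total). Exonic length covers all annotated exons of a gene, so RPKM compares levels between genes only roughly. Of 8 markers of blood, endothelial and stromal cells, 5 did not pass the filter, among them PTPRC and CD3E at 0 to 5 counts per library. The 3 that passed were COL1A1, CD68 and VWF. COL1A1 had 1274 to 2416 counts per library and a log2 fold change (shtRF minus control) of -0.62. CD68 had 315 to 566 counts per library and a log2 fold change of 0.57. Other genes overlap 85.8% of the exonic bases of CD68. VWF had 4 to 16 counts per library. The summed level of all 8 was 4.54 to 5.93 RPKM. In such bulk samples a lower level per cell and a smaller number of cells expressing a gene cannot be told apart.

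Glucose enters the cell through facilitative transporters of the SLC2A (GLUT) family and is trapped as glucose-6-phosphate by hexokinase. Glycolysis then splits it into trioses and converts them to pyruvate. Lactate dehydrogenase reduces pyruvate to lactate for export by monocarboxylate transporters, or pyruvate dehydrogenase oxidises it inside the mitochondrion. Glucose-6-phosphate can also leave glycolysis for the pentose phosphate pathway, which makes NADPH and ribose, or be stored as glycogen. Tumour cells often run glycolysis to lactate even with oxygen present, and many of the enzymes exist as several paralogs encoded by separate genes, of which a cell usually relies on one or a few. Splice forms of one gene, such as the alternative forms of pyruvate kinase M, are not separated by counts per gene.

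In shtRF cells 11 of 16 glycolytic genes were lower and 2 higher, and 3 of the 4 tested glucose transporter genes were higher. Among the 41 tested genes, 10 rose and 17 fell with an adjusted p under 0.05 by edgeR's quasi-likelihood test, and 14 did neither. The share called was 65.9%, against 39.5% of all tested genes, of which 20.6% rose and 18.9% fell. The share of members that rose (24.4%) lay near that background, and the share that fell (41.5%) lay above it. The median log2 fold change (shtRF minus control) of the members was -0.17, against -0.003 over all tested genes. Changes were mostly modest: 2 members fell over 2-fold, both in the lactate step, where 3.11% of all genes did so, and 2 rose over 2-fold, both near the limit of detection, where 2.66% of all genes did so. In 29 of the 41 (70.7%) the groups did not overlap on the CPM scale (counts scaled to a common library size with TMM factors), against 48.7% of all genes. Members and step lists were chosen with earlier results of these data known, so these counts describe the list and are not independent evidence of its direction.

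**Figure D1:**
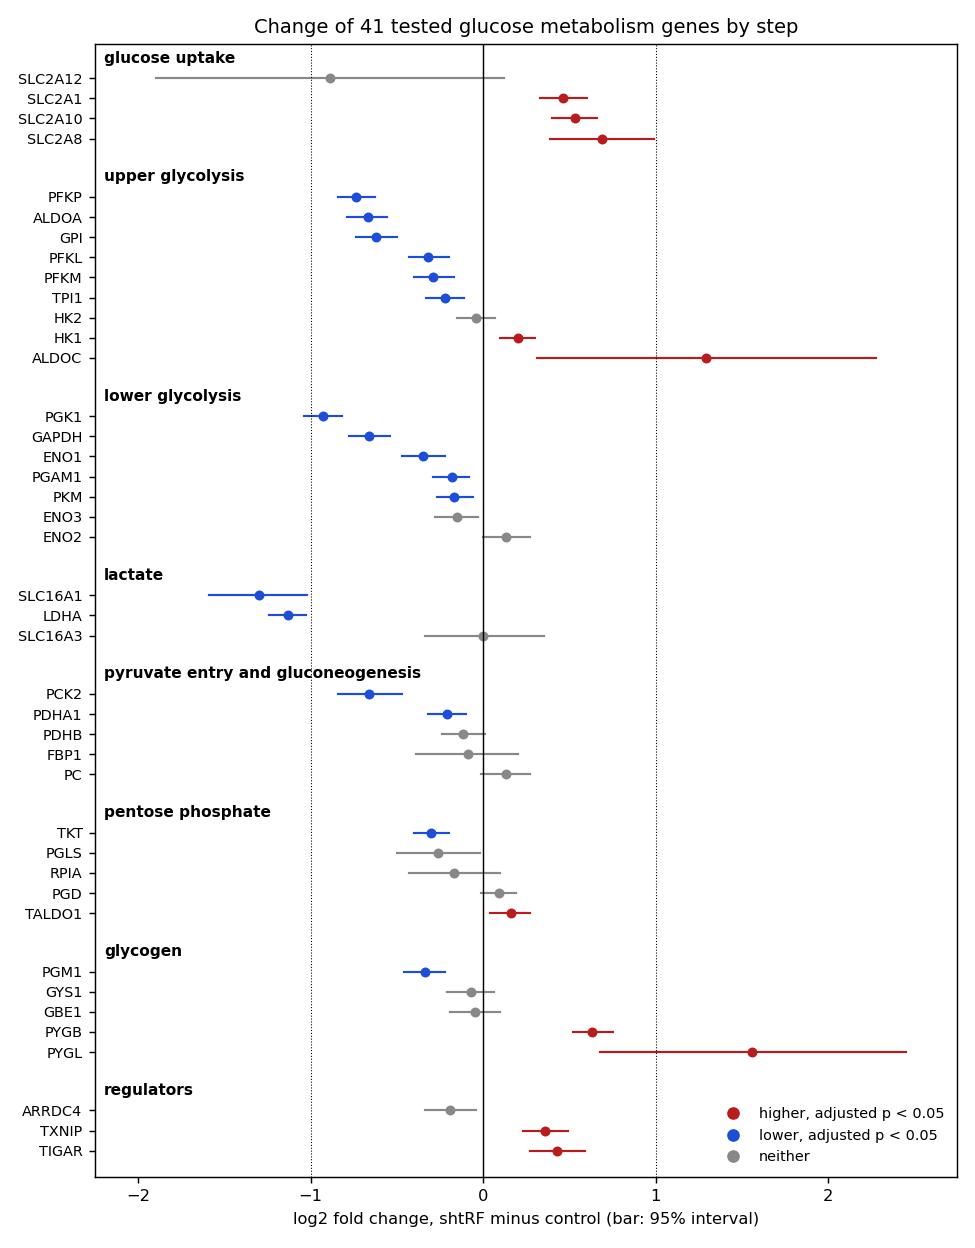
Log2 fold changes (shtRF minus control, x axis) of the 41 tested genes, grouped by step and ordered by value within a step. Points are edgeR estimates, bars their approximate 95% intervals and dotted lines a 2-fold change. Most glycolytic enzymes lie left of 0, with LDHA and SLC16A1 beyond 2-fold, and 3 of the 4 transporters lie right of it.

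Glycolysis itself comprised 16 tested members, of which 2 rose, 11 fell and 3 did neither, with a median log2 fold change of -0.26. That was 81.2% called, against 39.5% of all tested genes. Taken by reaction, the leading gene, meaning the paralog with the highest mean RPKM over the 6 libraries, fell in 9 of the 10 reactions from hexokinase to pyruvate kinase, and in 1, hexokinase, it rose. The summed level of the 16 was 898, 991 and 883 RPKM in control libraries 1 to 3 and 678, 678 and 675 RPKM in shtRF libraries 1 to 3. No shtRF library reached the lowest control library. The ratio of the means was 0.733. For members of all steps together the summed level was 1374, 1471 and 1346 RPKM in control and 1094, 1080 and 1085 RPKM in shtRF. GAPDH and ENO1 alone supplied 31.9% to 35.1% of that sum in control libraries and 28.2% to 30.1% in shtRF libraries, so sums largely follow these very abundant genes.

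**Figure D2:**
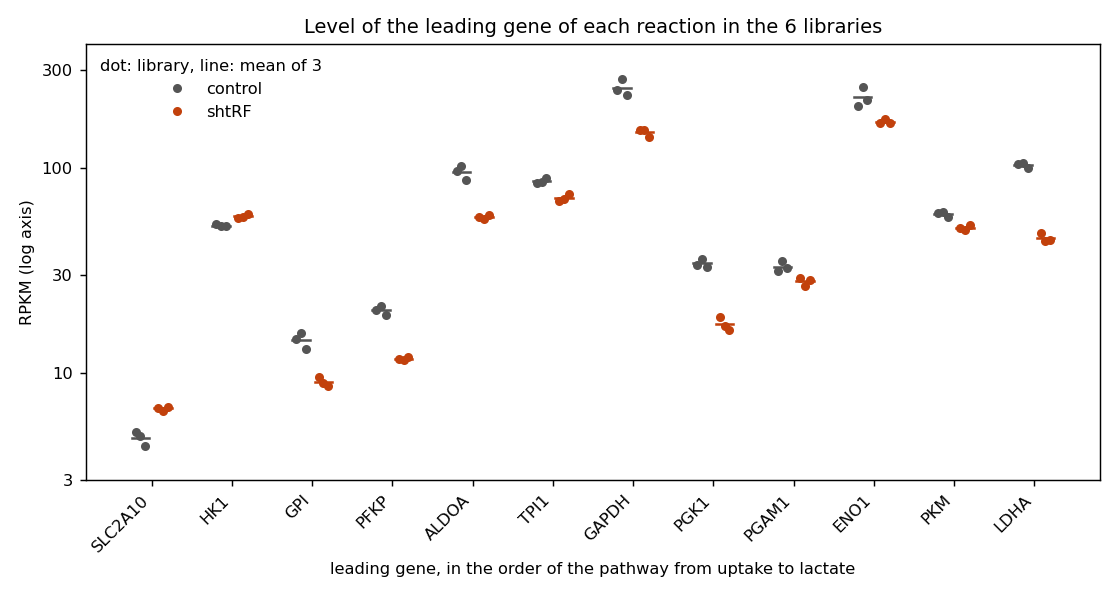
RPKM (log axis) of leading genes in each of the 6 libraries, in the order of the pathway from uptake through glycolysis (HK1 to PKM) to lactate (LDHA). Uptake is shown by SLC2A10, which led the class I and III transporters only. The class II transporter gene SLC2A11 had a higher RPKM and is not drawn. Dots are libraries and lines the mean of 3. The groups do not overlap for any of the 12 genes, and the shtRF dots lie below the control dots for all but SLC2A10 and HK1.

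Among uptake genes the called changes were rises. Of the 6 transporter genes, 4 were tested, 3 rose and none fell, with a median log2 fold change of 0.50. That was 75.0% called, against 39.5% of all tested genes. SLC2A10, which encodes GLUT10, led the class I and III transporters, with 5.12, 4.92 and 4.40 RPKM in control and 6.76, 6.54 and 6.80 RPKM in shtRF. All shtRF libraries stood above all control libraries. The rise was 1.45-fold (log2 fold change 0.53 ± 0.07 SE, edgeR adjusted p = 1.1e-06). SLC2A1, encoding GLUT1, the broadly expressed transporter often raised in tumours, had 3.56, 3.74 and 3.55 RPKM in control and 4.99, 4.54 and 4.90 RPKM in shtRF, again without overlap (log2 fold change 0.46 ± 0.07, edgeR adjusted p = 1.02e-05). SLC2A8, encoding the mostly intracellular GLUT8, was expressed at a lower level, 0.498, 0.498 and 0.5 RPKM in control and 0.717 to 0.869 RPKM in shtRF, and rose by 0.69 ± 0.15 on the log2 scale (edgeR adjusted p = 0.00108). SLC2A12 (GLUT12) was close to the limit of detection at 4 to 28 counts per library and did not pass the test (log2 fold change -0.89 ± 0.52, edgeR adjusted p = 0.188), and 38.9% of its exonic bases are shared with TBPL1. The neuronal transporter gene SLC2A3 (GLUT3) and the insulin-responsive SLC2A4 (GLUT4) did not pass the filter, with 0 to 9 and 0 to 6 counts per library. SLC2A10 held 52.8% ± 1.66 (SD, n = 3) of the summed RPKM of the class I and III family in control and 53.9% ± 1.07 in shtRF, a difference of 1.11 percentage points with a p of 0.5 in an exact two-sided permutation test. With 3 libraries against 3, this test cannot give a p under 0.1, for this family or any other.

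Hexokinase, which commits glucose to the cell, was the reaction whose leading gene rose. HK1 had 52.8, 51.7 and 51.8 RPKM in control and 57.0, 57.1 and 59.2 RPKM in shtRF. The shtRF libraries were all higher, by a small step (1.15-fold, log2 fold change 0.20 ± 0.05, edgeR adjusted p = 0.00347). HK2, the paralog that tumours often add, was expressed at a lower level per length, 25.6 to 28.2 RPKM in control and 24.1 to 26.8 RPKM in shtRF, and its groups overlapped (log2 fold change -0.04, 95% interval -0.15 to 0.07, edgeR adjusted p = 0.628). HK1 therefore held 65.7% ± 1.07 of hexokinase RPKM in control and 69.3% ± 0.81 in shtRF (difference 3.67 percentage points, exact permutation p = 0.1, the smallest possible).

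From the second reaction on, the upper part of glycolysis fell. GPI, glucose-6-phosphate isomerase and the only gene of its reaction, had 14.6, 15.6 and 13.0 RPKM in control and 9.51, 8.95 and 8.66 RPKM in shtRF, with no overlap (log2 fold change -0.62 ± 0.06, edgeR adjusted p = 3.45e-08). Phosphofructokinase 1, the main control point of glycolysis, is encoded by PFKP (platelet type), PFKL (liver type) and PFKM (muscle type). PFKP had 20.3, 21.2 and 19.2 RPKM in control and 11.7, 11.5 and 11.9 RPKM in shtRF. That was a 1.67-fold fall (log2 fold change -0.74 ± 0.05, edgeR adjusted p = 3.89e-10) with a wide gap between the groups. PFKL fell less, from 15.5 to 18.2 RPKM in control to 12.8 to 13.7 RPKM in shtRF (log2 fold change -0.32 ± 0.06, edgeR adjusted p = 0.000146), and PFKM fell by 0.29 ± 0.06 on the log2 scale (edgeR adjusted p = 0.000461). PFKP was the leading paralog in the 3 control libraries, with 47.6% ± 0.898 of the family, and PFKL in the 3 shtRF libraries, where the share of PFKP was 40.3% ± 0.65. The difference was -7.28 percentage points (exact permutation p = 0.1, the smallest possible). By RPKM this was the one family of 17 whose leading gene was not the same in all 6 libraries. By counts not divided by exon length, PFKL led in each of the 6 libraries. The order of these paralogs, and the change of leading gene between groups, therefore depend on the length correction. Of the 3, PFKM shares 8.6% of its exonic bases with SENP1 on the opposite strand.

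ALDOA, fructose-bisphosphate aldolase A, followed the same pattern at a higher level, with 96.1, 102 and 86.9 RPKM in control and 57.6, 56.4 and 58.6 RPKM in shtRF. The control libraries were all higher (log2 fold change -0.67 ± 0.06, edgeR adjusted p = 5.38e-09), although control library 3 was the lowest of them. It supplied nearly the whole aldolase family, 99.9% in control and 99.8% in shtRF. The brain-type paralog ALDOC was at 8 to 10 counts per control library and 17 to 22 counts per shtRF library (0.0346 to 0.0534 and 0.0812 to 0.108 RPKM). Its log2 fold change was 1.29 ± 0.50 (95% interval 0.31 to 2.28), and its edgeR adjusted p of 0.0461 was lost whichever library was left out, with adjusted p then between 0.0688 and 0.14. TPI1, triosephosphate isomerase, had 83.7, 85.2 and 89.2 RPKM in control and 68.4, 70.5 and 74.6 RPKM in shtRF, a smaller fall of 0.22 ± 0.06 on the log2 scale (edgeR adjusted p = 0.00322) without overlap.

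In the lower part of glycolysis, which recovers ATP, 5 of 7 members (71.4%) fell and none rose, where 39.5% of all tested genes were called. GAPDH, the dehydrogenase often used as a reference gene, had the highest level of all 44 genes in control, with 238, 269 and 225 RPKM, and 153, 153 and 141 RPKM in shtRF. The groups stood well apart (1.58-fold lower, log2 fold change -0.66 ± 0.06, edgeR adjusted p = 1.62e-08). Its antisense neighbour RP5-940J5.9, with which it shares 14.2% of its exonic bases, had a log2 fold change of -0.68, and whether counting used strand is not given in the sources used here. PGK1, phosphoglycerate kinase 1 on the X chromosome (chrX:78065188-78129296, GRCh38), showed the largest fall in glycolysis proper. It had 33.5, 35.8 and 32.9 RPKM in control and 18.7, 16.9 and 16.1 RPKM in shtRF. The lowest control library stood far above the highest shtRF library (1.91-fold lower, log2 fold change -0.93 ± 0.06, 95% interval -1.04 to -0.82, edgeR adjusted p = 1.84e-11). PGAM1, phosphoglycerate mutase 1, changed little, from 31.3, 35.0 and 32.4 RPKM to 28.8, 26.6 and 28.4 RPKM (log2 fold change -0.18 ± 0.05, edgeR adjusted p = 0.0105). The groups did not overlap, but the adjusted p rose to 0.0551 without control library 2 and to 0.0621 without shtRF library 2.

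ENO1, enolase 1, had 200, 247 and 214 RPKM in control and 164, 172 and 165 RPKM in shtRF. Control library 2 was the highest, and none of the control libraries reached down to the shtRF range (log2 fold change -0.35 ± 0.07, edgeR adjusted p = 0.000219). The muscle paralog ENO3 and the neuronal paralog ENO2 were far lower per length, at 8.32 to 10.7 and 5.44 to 6.48 RPKM. For neither did the test pass, with log2 fold changes of -0.15 ± 0.06 (edgeR adjusted p = 0.0675) and 0.13 ± 0.07 (edgeR adjusted p = 0.128). ENO3 was called lower in 7 of 16 alternative settings. ENO1 held 93.3% ± 0.508 of enolase RPKM in control and 91.8% ± 0.0754 in shtRF (exact permutation p = 0.1, the smallest possible). PKM, pyruvate kinase M, closed the chain with 59.9, 60.6 and 57.2 RPKM in control and 50.6, 49.4 and 52.5 RPKM in shtRF. This was the smallest called fall among the members (log2 fold change -0.17 ± 0.05, edgeR adjusted p = 0.0144), and it stood at an adjusted p of 0.0503 without shtRF library 2.

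The largest falls among the members were those of 2 genes of the lactate step, LDHA and SLC16A1, of 3 tested. LDHA, the lactate dehydrogenase A gene at chr11:18394388-18408425 (GRCh38), had 104, 105 and 100 RPKM in control and 47.7, 43.9 and 44.3 RPKM in shtRF. Every shtRF library lay below every control library by more than 2-fold. The fall was 2.19-fold (log2 fold change -1.13 ± 0.05, 95% interval -1.24 to -1.03, edgeR adjusted p = 1.81e-13), and LDHA went from 7.14% to 7.57% of the members' summed RPKM in control libraries to 4.06% to 4.36% in shtRF libraries. LDHB, the paralog that favours the reaction from lactate to pyruvate, was at 0 to 4 counts per library and was not tested. LDHA thus held 99.4% ± 0.024 of lactate dehydrogenase RPKM in control and 98.4% ± 0.38 in shtRF. SLC16A1, encoding the lactate transporter MCT1, had 0.960, 1.17 and 1.30 RPKM in control and 0.429, 0.506 and 0.403 RPKM in shtRF. Here too the groups lay apart (2.47-fold lower, log2 fold change -1.30 ± 0.14, 95% interval -1.59 to -1.02, edgeR adjusted p = 2.29e-07). SLC16A3, encoding MCT4, the exporter of strongly glycolytic cells, was low, at 0.208 to 0.278 RPKM in control and 0.221 to 0.238 RPKM in shtRF, with a log2 fold change of 0.00 and a 95% interval from -0.34 to 0.35 (edgeR adjusted p = 0.993). By RPKM the leading lactate transporter was SLC16A8 (MCT3), which is not one of the 44. By counts not divided by exon length, SLC16A1 led over the 6 libraries as a whole. By such counts SLC16A8 nevertheless led in shtRF libraries 1 and 3, and shtRF library 2 was nearly even (192 for SLC16A1, 191 for SLC16A8). SLC16A8 had 1.97, 1.64 and 1.55 RPKM in control and 1.31, 1.21 and 1.39 RPKM in shtRF. Its groups did not overlap, but it did not pass the test (log2 fold change -0.34 ± 0.14, edgeR adjusted p = 0.061). Its share of the family was 55.4% ± 5.53 in control and 65.8% ± 3.01 in shtRF (exact permutation p = 0.1, the smallest possible).

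**Figure D3:**
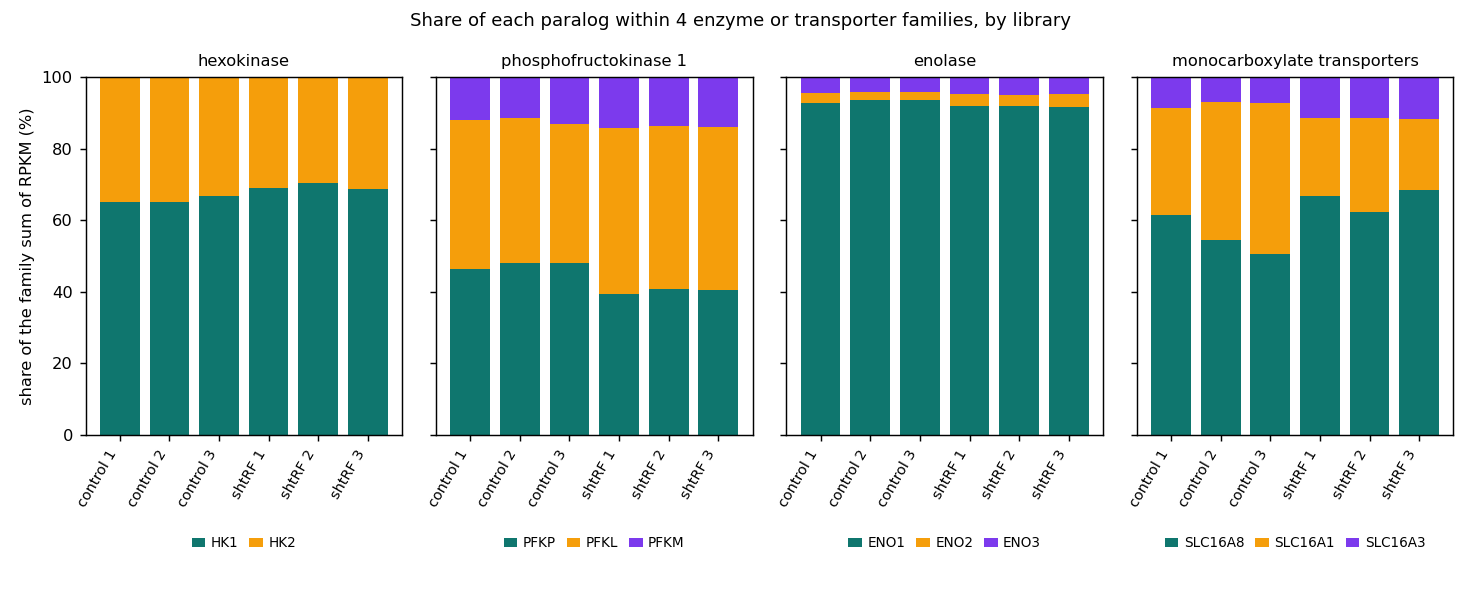
Share (%) of the summed RPKM of a family held by each paralog, in each of the 6 libraries, for hexokinase, phosphofructokinase 1, enolase and the monocarboxylate transporters. Colours are paralogs, and paralogs too low to be seen at this scale are left undrawn. The share of PFKP is smaller in the 3 shtRF libraries (40.3% on average against 47.6%), that of HK1 and SLC16A8 larger.

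LDHA and PGK1 showed the largest falls among members with a promoter window at hand, and GAPDH had the highest level in control. SLC2A10 rose and was the leading gene of the class I and III transporters. The bases before the start sites of these genes are shown. Marked in them are letters that the hypoxia-inducible factors and E-box proteins are known to read. Capitals mark ACGTG and GCGTG, the cores of hypoxia response elements, and CACGTG, an E-box that contains ACGTG, on either strand. The sequences are the 250 bases before the start site in RefSeq (GRCh38.p14), 5′ to 3′ on the strand of the gene.
LDHA promoter, chr11:18394313-18394562, plus strand: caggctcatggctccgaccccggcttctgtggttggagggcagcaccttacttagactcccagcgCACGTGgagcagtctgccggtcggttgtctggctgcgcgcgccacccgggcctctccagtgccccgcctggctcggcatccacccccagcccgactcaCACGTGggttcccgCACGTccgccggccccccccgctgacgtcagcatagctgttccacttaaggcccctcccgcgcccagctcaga
PGK1 promoter, chrX:78103998-78104247, plus strand: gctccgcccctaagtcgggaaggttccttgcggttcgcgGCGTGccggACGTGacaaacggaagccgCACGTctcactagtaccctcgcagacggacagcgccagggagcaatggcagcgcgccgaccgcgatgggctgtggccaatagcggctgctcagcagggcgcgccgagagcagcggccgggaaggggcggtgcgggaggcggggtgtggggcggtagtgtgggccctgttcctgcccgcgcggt
GAPDH promoter, chr12:6535014-6535263, plus strand: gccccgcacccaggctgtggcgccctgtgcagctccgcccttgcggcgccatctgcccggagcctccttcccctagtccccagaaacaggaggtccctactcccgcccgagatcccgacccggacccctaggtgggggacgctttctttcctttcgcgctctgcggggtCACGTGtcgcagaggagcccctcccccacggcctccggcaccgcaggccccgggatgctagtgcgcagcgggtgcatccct
SLC2A10 promoter, chr20:46709399-46709648, plus strand: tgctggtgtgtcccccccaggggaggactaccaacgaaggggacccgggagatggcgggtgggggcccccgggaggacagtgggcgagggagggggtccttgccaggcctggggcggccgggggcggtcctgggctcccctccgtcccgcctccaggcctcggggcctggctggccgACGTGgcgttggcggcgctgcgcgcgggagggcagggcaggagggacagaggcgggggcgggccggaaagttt

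The window of LDHA, the first of 2 that RefSeq lists for it, held CACGTG beginning 185 and 87 bases before the start and a further ACGTG on the reverse strand beginning 73 bases before it. In PGK1, GCGTG began 211 bases and ACGTG 202 and, on the reverse strand, 183 bases before the start. In GAPDH a single CACGTG began 81 bases before the start. The rising SLC2A10 also held ACGTG, beginning 73 bases before the start. Windows of 250 bases before to 50 after the start were listed for 41 of the 44 genes, 71 windows in all. ACGTG on either strand was in 38.7% of the 31 windows of genes that fell, in 23.5% of the 17 windows of genes that rose, in 40.9% of the 22 windows of genes that did neither and in 21.4% of all 35116 windows. For GCGTG the shares were 32.3%, 35.3%, 54.5% and 36.5%, and for CACGTG 9.7%, 5.9%, 13.6% and 7.3%. Short matches of this kind occur in many promoters and describe letters only, and windows of 1 gene are not independent.

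In the pyruvate group the changes were smaller than those of LDHA and SLC16A1. Of 5 members that oxidise pyruvate in the mitochondrion or serve the way back towards glucose, 2 fell and 3 did neither. The share called, 40.0%, lay near the 39.5% of all tested genes. PCK2, the mitochondrial phosphoenolpyruvate carboxykinase, had 14.2, 12.8 and 9.46 RPKM in control and 7.29, 7.59 and 7.37 RPKM in shtRF. Control library 3 was the lowest of its group and still stood above the shtRF libraries (log2 fold change -0.66 ± 0.09, edgeR adjusted p = 8.05e-06), and its cytosolic paralog PCK1 was listed at or near 0. PDHA1, the alpha subunit of pyruvate dehydrogenase, fell by 0.21 ± 0.06 on the log2 scale (edgeR adjusted p = 0.00545), and 21.3% of its exonic bases are shared with MAP3K15 on the opposite strand. PDHB, its beta subunit, did not pass (log2 fold change -0.12 ± 0.06, edgeR adjusted p = 0.152). PC, pyruvate carboxylase, and FBP1, the fructose bisphosphatase of gluconeogenesis, also did not pass, with log2 fold changes of 0.13 ± 0.07 and -0.09 ± 0.15. FBP1 led its family with 2.46, 2.80 and 1.78 RPKM in control and 2.07, 2.05 and 2.22 RPKM in shtRF, and the groups overlapped.

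The pentose phosphate branch held its summed level, at 208, 216 and 206 RPKM in control and 214, 205 and 213 RPKM in shtRF, with overlapping groups. Of 5 members 1 rose, 1 fell and 3 did neither. That was 40.0% called, near the 39.5% of all tested genes. PGD, 6-phosphogluconate dehydrogenase, supplied most of that sum at 155 to 164 RPKM in control and 158 to 168 RPKM in shtRF (log2 fold change 0.09, 95% interval -0.01 to 0.19, edgeR adjusted p = 0.194). TKT, the transketolase that links the branch back to glycolysis, had 21.7, 22.2 and 21.1 RPKM in control and 17.4, 16.5 and 17.1 RPKM in shtRF. It fell in all shtRF libraries (log2 fold change -0.30 ± 0.05, edgeR adjusted p = 5.93e-05). TALDO1, transaldolase, was called higher (log2 fold change 0.16 ± 0.06, edgeR adjusted p = 0.0378), but its groups overlapped, and its adjusted p was 0.193 without control library 1, 0.0985 without control library 2, 0.141 without shtRF library 1 and 0.164 without shtRF library 2. PGLS and RPIA, the lactonase and the ribose isomerase, were low (1.49 to 2.65 RPKM) and did not pass.

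Glycogen genes split by direction. PYGB, the brain-type phosphorylase that releases glucose-1-phosphate and the leading phosphorylase here (98.6% ± 0.472 of the family in control and 98.8% ± 0.337 in shtRF), had 7.21, 7.29 and 6.55 RPKM in control and 11.1, 10.4 and 10.0 RPKM in shtRF. All shtRF libraries were higher (1.55-fold, log2 fold change 0.63 ± 0.06, edgeR adjusted p = 1.98e-08). The liver-type phosphorylase PYGL had the largest fitted rise of all members but only 10 to 16 counts per control library and 22 to 38 per shtRF library. Its level was 0.0326, 0.0453 and 0.0264 RPKM in control and 0.0658, 0.111 and 0.121 RPKM in shtRF. The rise of 1.56 ± 0.45 on the log2 scale (95% interval 0.68 to 2.45, edgeR adjusted p = 0.00832) is therefore poorly determined, and the adjusted p was 0.0549 without shtRF library 3. GYS1, the muscle-type glycogen synthase and nearly the only synthase expressed, had 5.99, 6.36 and 5.89 RPKM in control and 5.74, 5.82 and 5.16 RPKM in shtRF, with overlapping CPM values (log2 fold change -0.07, 95% interval -0.21 to 0.06, edgeR adjusted p = 0.448). GBE1, the branching enzyme, likewise did not pass (log2 fold change -0.05 ± 0.08). PGM1, the phosphoglucomutase that joins glycogen to glycolysis, had 8.19, 8.36 and 7.70 RPKM in control and 6.33, 5.89 and 6.20 RPKM in shtRF. It was lower in every shtRF library (log2 fold change -0.34 ± 0.06, edgeR adjusted p = 0.000114).

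Of the 3 regulators, 2 rose and 1 did neither, so 66.7% were called, against 39.5% of all tested genes. TXNIP, which encodes a glucose-induced arrestin that restrains glucose uptake, had 24.4, 23.6 and 19.3 RPKM in control and 28.5, 26.7 and 28.0 RPKM in shtRF (log2 fold change 0.36 ± 0.07, edgeR adjusted p = 0.000166). Its relative ARRDC4, also a known target of the glucose-sensing MondoA factor, did not pass and had the opposite sign (log2 fold change -0.19 ± 0.08, edgeR adjusted p = 0.0533), although its CPM values did not overlap. It was called lower in 9 of 16 alternative settings, with adjusted p between 0.0231 and 0.213, so its call depends on the setting. Its 943 to 1504 counts per library left little counting error. TIGAR, a bisphosphatase that opposes phosphofructokinase 1, had 3.08, 3.15 and 3.31 RPKM in control and 4.19, 4.41 and 3.77 RPKM in shtRF (log2 fold change 0.43 ± 0.08, edgeR adjusted p = 0.000237). For TXNIP and TIGAR alike, all shtRF libraries stood above all control libraries.

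**Figure D4:**
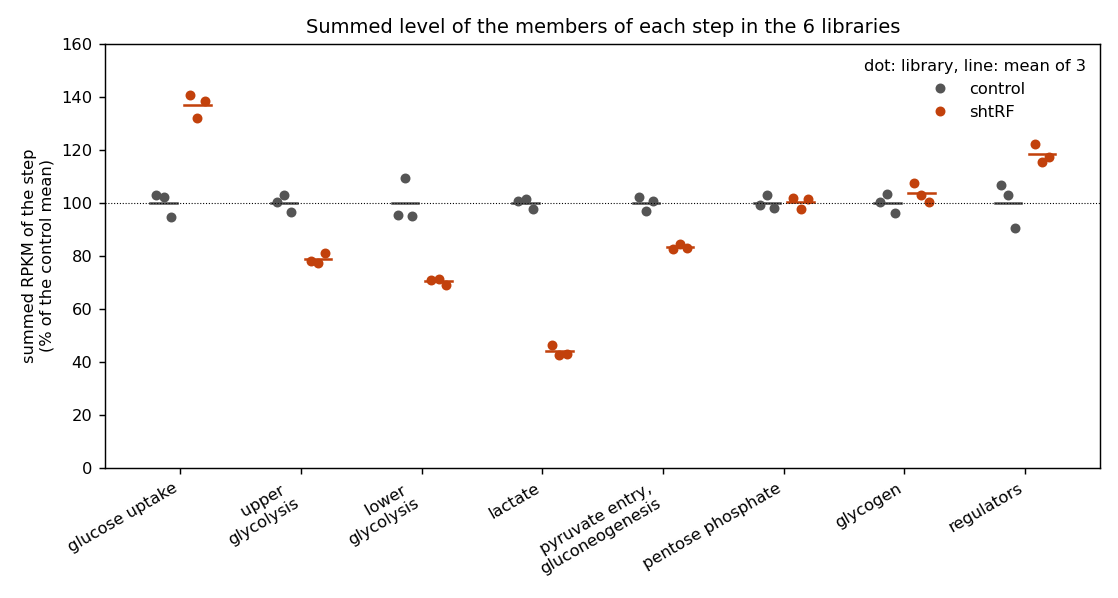
Summed RPKM of the members of each step in each library, as a percentage of the control mean of that step. Dots are libraries and lines the mean of 3. Lactate members lie lowest in shtRF libraries (46.0 against 104 RPKM on average), glucose uptake members highest (12.3 against 9.02 RPKM), and the pentose phosphate and glycogen sums overlap.

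The leading gene of a family was mostly unchallenged. In 11 of 17 families it held over 90% of the RPKM in both groups, and in 16 of 17 it was the same gene in all 6 libraries. The families with a real mixture of paralogs were the transporters, hexokinase, phosphofructokinase 1 and the monocarboxylate transporters, with fructose bisphosphatase and phosphoglucomutase between 80.9% and 88.6% for their leading gene.

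For genes of the same pathways outside the 44 the counts lay near the background. Of 90 such genes, 67 were tested, 12 rose, 13 fell and 42 did neither, a share of 37.3% called beside the 39.5% of all genes, with a median log2 fold change of 0.00. By step, the pyruvate group held 2 that rose and 6 that fell of 14 tested, the pentose phosphate group 2 and 2 of 8, the glycogen group 3 and 1 of 20, the transcriptional and other regulators 2 and 2 of 5, the lactate group 1 and 1 of 6, upper glycolysis 1 and 0 of 5, lower glycolysis 0 and 1 of 4, and uptake 1 and 0 of 5. The difference in frequency between the 44 and these genes was not tested. PDK1, pyruvate dehydrogenase kinase 1, which inhibits pyruvate dehydrogenase, was the one past 2-fold. It had 0.625, 0.660 and 0.553 RPKM in control and 0.283, 0.229 and 0.336 RPKM in shtRF. No value was shared between the groups (2.09-fold lower, log2 fold change -1.06 ± 0.12, edgeR adjusted p = 4.24e-07). A further pair was chosen after its values were seen. BSG, basigin, the partner that carries MCT1 and MCT4 to the plasma membrane, had 42.1, 44 and 41.9 RPKM in control and 52.6, 47.8 and 49.9 RPKM in shtRF (log2 fold change 0.29 ± 0.05, edgeR adjusted p = 0.000113). SLC2A11, a class II transporter gene, was higher per length than any of the 6 transporter members, with 26.4, 19.6 and 19.0 RPKM in control and 36.2, 33.1 and 35.8 RPKM in shtRF (log2 fold change 0.75 ± 0.08, edgeR adjusted p = 2.9e-07), with 18.4% of its exonic bases overlapped by neighbours. For both, every shtRF library was above every control library.

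Genes that answer to low oxygen but lie outside glucose metabolism moved in the same libraries. Of 25 listed, 24 were tested, 5 rose, 14 fell and 5 did neither, and their median log2 fold change was -0.45. The share called was 79.2%, against 39.5% of all tested genes, and 6 of the 24 (25.0%) fell over 2-fold, against 3.11% of all. Their summed level was 504, 478 and 364 RPKM in control and 224, 211 and 221 RPKM in shtRF, with control library 3 the lowest of its group. DDIT4, an inhibitor of mTORC1 signalling, made up much of that difference, with 249, 213 and 125 RPKM in control and 27.8, 25.0 and 27.6 RPKM in shtRF, and neighbours overlap 41.2% of its exonic length. Without DDIT4, a subset taken after seeing the data, the sums were 255, 265 and 239 RPKM in control and 196, 186 and 194 RPKM in shtRF. The part of the low-oxygen genes in the changes of the glycolytic genes was not tested. In the same way control library 3 was the lowest control for ALDOA, GAPDH, GPI, LDHA and PCK2, yet without it 9 members rose and 19 fell.

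Many glycolytic genes have processed pseudogenes with nearly the same sequence, and reads of GAPDH, PGK1, PGAM1, TPI1, ENO1, PKM and LDHA could be split among such copies or shared with them. Among the other 34 tested members, 10 rose and 10 fell, with a median log2 fold change of -0.08. Among the 30 tested members with under 5% of exonic bases in exons of another gene, 9 rose and 12 fell. Among the 24 that met both conditions, 9 rose and 6 fell, with a median of -0.04, so there more rose than fell. These subsets were chosen after seeing the data. All the genes named above for their pseudogenes had been called lower, so leaving them out could only reduce the number that fell. Whether reads were shared with pseudogenes was not tested.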

How the data were processed

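Per the labels, stranded mRNA libraries were sequenced as read pairs. The authors deposited raw counts per gene with exon coordinates on GRCh38. The submitters' processing notes name Trimmomatic 0.36, featureCounts, Subread 1.5.1 and edgeR 3.12.1, and the aligner is not given in the sources used here. Among counts of 1 to 4, 74.2% to 77.1% were even (49.7% to 50.7% from 1000 counts up), so both mates may have been counted and counts may overstate fragments. The authors also deposited RPKM values. In the part used here 4991 matched genes equalled the count divided by exonic length and library total (tolerance 1e-06), and RPKM was recomputed in this way throughout.

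Groups follow the sample titles. edgeR 4.0.16 (R 4.3.3) was fitted to the deposited counts of all genes with filterByExpr (minimum count 10), TMM, a quasi-likelihood test of group and Benjamini-Hochberg adjustment over 19628 genes. Standard errors were derived from the F statistic of that test. The 95% intervals use a normal approximation, so they can be narrower than the test implies. Replicates varied by 7.56%. The fit was first tested on simulated data. DESeq2 1.42.0, limma 3.58.1, other scalings and filters, a replicate block and leaving out each library were alternatives.

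Members and lists were chosen with earlier results of these data known. Values per library are given for members past 2-fold with an adjusted p under 0.05 and for leading paralogs, plus others on which a step turned. Other pathway genes were named past 2-fold, at most 6. 1 gene of the pathway list is not reported here by name.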

Additional observations from a re-analysis of the deposited data

How the results depend on the processing

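Over 16 alternatives the members gave 653 fitted values, of which 597 kept their direction and their side of the threshold, 25 lost the call, 19 gained it and 12 changed sign. Between 7 and 10 members rose and between 16 and 19 fell. The median log2 fold change of the members moved from -0.165 to -0.201 under upper quartile scaling and to -0.216 under limma-trend on log2(RPKM + 0.1), where the median of all genes moved to -0.039 and -0.05. The other pathway genes that rose numbered 7 under limma-trend on log2(RPKM + 1) and 7 with a pseudocount of 0.1, against 12. Subsets of members were also chosen after seeing the data. Those with under 5% of exonic bases shared gave 9 that rose, 12 that fell and a median of -0.12. Those outside families with processed pseudogenes gave 10, 10 and -0.08. Those meeting both conditions gave 9, 6 and -0.04, turning the balance of calls. Every tested member left out for its pseudogenes had been called lower, so that step could only reduce the number that fell.

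The changes of sign were those of SLC16A3 and FBP1, which passed the test under none of these settings. SLC16A3 stood at -0.001 under RLE scaling and DESeq2, -0.033 under upper quartile scaling, -0.004 without a filter, -0.011 under a filter of 10 counts per library, -0.01 and -0.032 under limma-trend and -0.01 with halved counts, and between -0.09 and 0.129 with 1 library left out. With 1 library left out FBP1 lay between -0.258 and 0.042.

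With a replicate block 9 members rose and 19 fell. Deviations of libraries with the same number correlated at -0.003 to 0.018, and the numbers were not treated as pairs. A filter of 10 counts per library left ALDOC and SLC2A12 untested, and halving the counts left ALDOC untested. Besides ALDOC, PYGL, PGAM1, PKM and TALDO1 lost their call in at least 1 setting. ARRDC4 gained one in 9 settings, ENO3 in 7, and SLC2A12, PDHB and PGLS in 1 each. Genes under about 1 RPKM are limited by their counts.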
